A study of Mus musculus with 21 samples.

Results

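The 10 genes described here are Sesn1, Sesn2, Sesn3, Ddit4, Gdf15, Phlda3, Tigar, Pltp, Dcxr and Gls2, the sestrins and other metabolic genes known as targets of the transcription factor p53. They were taken by symbol from a table of 20900 genes, and all 10 passed the filter on low values that 14666 genes passed. RNA-seq of poly(A) RNA was made from E14 cells, a mouse embryonic stem cell line of the 129 strain, cultured in medium containing leukaemia inhibitory factor. The inhibitors of RNA polymerase I, BMH-21 and CX-5461, were each given at 1 µM for 2, 4 or 8 h, and the control was untreated cells at 0 h. With 3 replicates in each of 7 groups there were 21 libraries. The control served both inhibitors, and no untreated cells were taken at the later times. The labels do not say whether replicates were separate cultures. The p-values rest on the spread between these libraries, largely pooled over genes, and that spread may be technical. Libraries held 46604397 to 62812641 reads.

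All 8 stem cell markers checked (such as Pou5f1 and Nanog) were present, with a summed log2 level of 12.29 to 12.50 in the control, 11.16 to 11.23 after 8 h of BMH-21 and 12.04 to 12.14 after 8 h of CX-5461. The summed level of 3 neural markers ran from 4.00 to 4.41 in the control and from 5.19 to 5.40 after 4 h of BMH-21. Between those groups the mean of Neurod1 went from 2.80 to 5.18, while Pax6 went down from 3.26 to 0.26 and Sox1 from 1.38 to 0.63. The 3 trophoblast markers ran from 6.16 to 6.27 in the control and from 6.74 to 7.02 after 8 h of BMH-21. The 6 fibroblast markers ran from 4.92 to 5.11 in the control and from 5.44 to 5.73 after 4 h of BMH-21, with Col1a1 going from 3.15 to 4.97, Col1a2 from 0.26 to 0.47, Thy1 down from 4.48 to 3.81 and Col3a1 from -2.33 to -2.54. Lum, a defining marker, had group means from -6.33 to -5.48. The 4 endoderm markers ran from 2.54 to 2.90 in the control and up to 3.04 after 8 h of CX-5461. There Gata6 went from 1.12 to 1.84, Sox17 from -0.01 to 0.35 and Afp from -2.03 to -1.29, and Gata4 down from 1.72 to 1.48. The 3 mesoderm markers ran from 0.97 to 1.60 in the control and up to 2.35 after 8 h of BMH-21. There Mesp1 went from -1.70 to 1.65 and Mixl1 from -0.26 to -0.14, while T went down from 0.25 to -0.36. These marker levels also differed between groups, and their part in the members' results was not tested. In bulk RNA, fewer cells of a type and less RNA per cell cannot be told apart.

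p53 is held low by the ubiquitin ligase MDM2 in unstressed cells. When RNA polymerase I is inhibited, free ribosomal proteins bind MDM2, and p53 can accumulate. Beside cell cycle arrest and death genes, p53 activates genes that slow growth and adjust metabolism. Sestrins bind the GATOR2 complex and keep the growth kinase complex mTORC1 from its activators, and DDIT4 (REDD1) restrains mTORC1 through the TSC complex. PHLDA3 competes with the kinase AKT for membrane lipid, and GDF15 is a secreted stress hormone. TIGAR is a fructose bisphosphatase that slows glycolysis, and GLS2 is a mitochondrial glutaminase. PLTP carries phospholipids between lipoproteins, and DCXR reduces dicarbonyls and L-xylulose. Several members also answer to other factors: ATF4 and hypoxia factors induce Ddit4, ATF4 induces Sesn2 and Gdf15, FOXO factors induce Sesn1 and Sesn3, and liver X receptors induce Pltp.

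Promoters were read from RefSeq (GRCm38.p6) as 300 bases, from 250 before to 50 after a transcription start, and 9 of the 10 members had an entry, with 11 promoters in all. Gls2 had no entry. They are shown for the 5 members with the largest rises, for Tigar, which fell, and for the Sesn1 promoter that came nearest to the p53 consensus. Capitals mark the core CATG of a p53 decamer, the hypoxia element core ACGTG, and any 20-base match to the p53 consensus (a pair of decamers) with at most 3 mismatches. Each is given 5′ to 3′ on the gene's strand.
Sesn2 (chr4:132510407-132510706, minus strand): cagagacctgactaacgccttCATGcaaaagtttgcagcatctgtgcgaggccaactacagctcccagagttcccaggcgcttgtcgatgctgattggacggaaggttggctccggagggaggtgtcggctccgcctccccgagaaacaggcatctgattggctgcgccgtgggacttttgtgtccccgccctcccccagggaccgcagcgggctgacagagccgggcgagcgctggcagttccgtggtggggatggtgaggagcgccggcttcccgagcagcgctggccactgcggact
Ddit4 (chr10:59951721-59952020, minus strand): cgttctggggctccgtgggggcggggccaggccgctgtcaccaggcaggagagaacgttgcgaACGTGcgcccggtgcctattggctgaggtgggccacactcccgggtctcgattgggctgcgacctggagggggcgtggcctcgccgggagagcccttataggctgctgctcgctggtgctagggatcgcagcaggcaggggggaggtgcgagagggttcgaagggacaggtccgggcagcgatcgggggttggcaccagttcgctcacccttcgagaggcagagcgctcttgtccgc
Gdf15 (chr8:70632407-70632706, minus strand): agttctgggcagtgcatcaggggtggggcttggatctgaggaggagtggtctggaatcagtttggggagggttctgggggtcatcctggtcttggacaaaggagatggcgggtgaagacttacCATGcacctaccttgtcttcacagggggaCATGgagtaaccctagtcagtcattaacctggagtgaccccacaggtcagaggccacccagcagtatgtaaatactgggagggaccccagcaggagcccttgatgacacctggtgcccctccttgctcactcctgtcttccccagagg
Phlda3 (chr1:135765835-135766134, plus strand): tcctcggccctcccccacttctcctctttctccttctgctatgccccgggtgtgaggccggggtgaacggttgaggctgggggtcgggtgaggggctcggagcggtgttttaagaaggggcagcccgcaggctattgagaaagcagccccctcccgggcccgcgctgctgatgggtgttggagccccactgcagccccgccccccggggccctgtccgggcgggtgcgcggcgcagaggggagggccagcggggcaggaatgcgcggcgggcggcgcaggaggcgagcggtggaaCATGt
Dcxr (chr11:120727235-120727534, minus strand): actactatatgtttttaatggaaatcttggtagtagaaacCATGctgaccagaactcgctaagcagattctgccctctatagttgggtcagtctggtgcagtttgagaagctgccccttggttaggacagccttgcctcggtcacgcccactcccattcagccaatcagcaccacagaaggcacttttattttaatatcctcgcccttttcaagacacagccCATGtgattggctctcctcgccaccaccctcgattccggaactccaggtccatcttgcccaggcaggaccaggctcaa
Tigar (chr6:127109503-127109802, minus strand): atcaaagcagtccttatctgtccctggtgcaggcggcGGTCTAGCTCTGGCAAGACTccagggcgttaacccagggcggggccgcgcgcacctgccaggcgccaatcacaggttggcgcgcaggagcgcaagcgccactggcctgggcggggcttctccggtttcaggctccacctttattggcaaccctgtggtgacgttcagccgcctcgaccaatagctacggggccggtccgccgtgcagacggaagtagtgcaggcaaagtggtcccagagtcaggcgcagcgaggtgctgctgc
Sesn1 (chr10:41887189-41887488, plus strand): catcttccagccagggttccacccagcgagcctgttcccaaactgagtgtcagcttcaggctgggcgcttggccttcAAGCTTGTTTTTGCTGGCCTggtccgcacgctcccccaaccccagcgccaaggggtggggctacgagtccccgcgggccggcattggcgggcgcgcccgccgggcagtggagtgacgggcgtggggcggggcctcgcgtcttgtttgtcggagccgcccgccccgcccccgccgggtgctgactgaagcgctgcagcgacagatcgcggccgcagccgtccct

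Both strands were searched, and positions are counted from the start site. CATG was in 4 of the 11 promoters, against 61.1% of 32851 RefSeq promoters: at -229 in Sesn2, at -127 and -98 in Gdf15, at 46 in Phlda3, and at -210 and -28 in Dcxr. The pair CATGNNNNNNCATG was in 0 of the 11 and in 0.712% of all promoters. A match to the p53 consensus with at most 3 mismatches lay at -213 in Tigar and at -173 in the second Sesn1 promoter, so in 2 of the 11, against 6.29% of all promoters. The other promoters held none in this window. The decamers were taken with no spacer between them, so spaced pairs were not searched. Whether a match goes with a member's change was not tested. ACGTG was in 2 of the 11 (19.6% of all), at -187 in Ddit4 and in the second Gdf15 promoter. TGATGNAA, the core of the element that ATF4 binds, was in 0 of the 11 and in 3.97% of all. GTAAACA, the FOXO core, was in the first Sesn1 promoter (1 of the 11, 3.65% of all), and TATAAA was in Pltp (1 of the 11, 13.6% of all). A match of letters is a description of these windows and not a binding site.

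The values are log2 levels as deposited, on which a difference of 1 is 2 times the reads for the library's size. Each comparison was tested with limma over all 14666 genes, with an adjusted p of 0.05 as the threshold. A group lay wholly above control for 11%, 22.8% and 24.1% of these genes at 2, 4 and 8 h of BMH-21. It lay wholly below for 19.5%, 42% and 57.1%. Under CX-5461 the shares were 8.71%, 20.8% and 42.8% above and 29.5%, 47.6% and 19.5% below. The deposited scaling moved the median gene, and centring each library on its own median changed a log2 difference from control by 0.08, 0.15 and 0.21 upward for BMH-21 at 2, 4 and 8 h. For CX-5461 centring added 0.15 and 0.16 at 2 and 4 h and took away 0.22 at 8 h. So for the members' differences from control, values after centring are given where they change a call or a direction. For the gene lists, centred counts are given at 8 h.

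More members rose than fell against control, and the number that rose was 5, 6 and 7 at 2, 4 and 8 h with each inhibitor. After 2 h of BMH-21, 5 members rose and 0 fell, where 8.48% of all genes rose and 11.2% fell. After 4 h of BMH-21, 6 members rose and 3 fell, beside 22.1% and 44.9% of all genes. After 8 h of BMH-21, 7 members rose and 2 fell, beside 24.5% and 56.9%. The early CX-5461 count was 5 higher and 0 lower, with a background of 7.45% and 20.5%, and at 4 h it was 6 higher and 3 lower, with 19.8% and 51.2%. At 8 h of CX-5461, 7 members rose and 0 fell, where 35.1% of all genes rose and 14.3% fell. At an unadjusted p under 0.05, limma had 0 members lower for BMH-21 at 2 h and 0 for CX-5461 at 8 h, as did voom weights at their threshold, while 2 members were lower for CX-5461 at 2 h, 1 of them past the threshold with voom weights. Over the members the median log2 difference from control with BMH-21 at 2, 4 and 8 h was 0.36, 0.82 and 0.97, against -0.07, -0.21 and -0.40 for all genes tested. For CX-5461 it was 0.53, 0.67 and 0.75, against -0.18, -0.28 and 0.11. Centring moved the CX-5461 8 h count to 7 higher and 3 lower, beside 29.3% and 44.7% of all genes. It moved the other counts by at most 1 in each direction, where the centred shares of all genes higher and lower were 18.6% and 17.5%, 32.2% and 41.5%, and 33.3% and 51.3% for BMH-21 in order of time. The centred shares for CX-5461 were 15.8% and 17.8% at 2 h and 28.5% and 45.7% at 4 h.

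**Figure D1:**
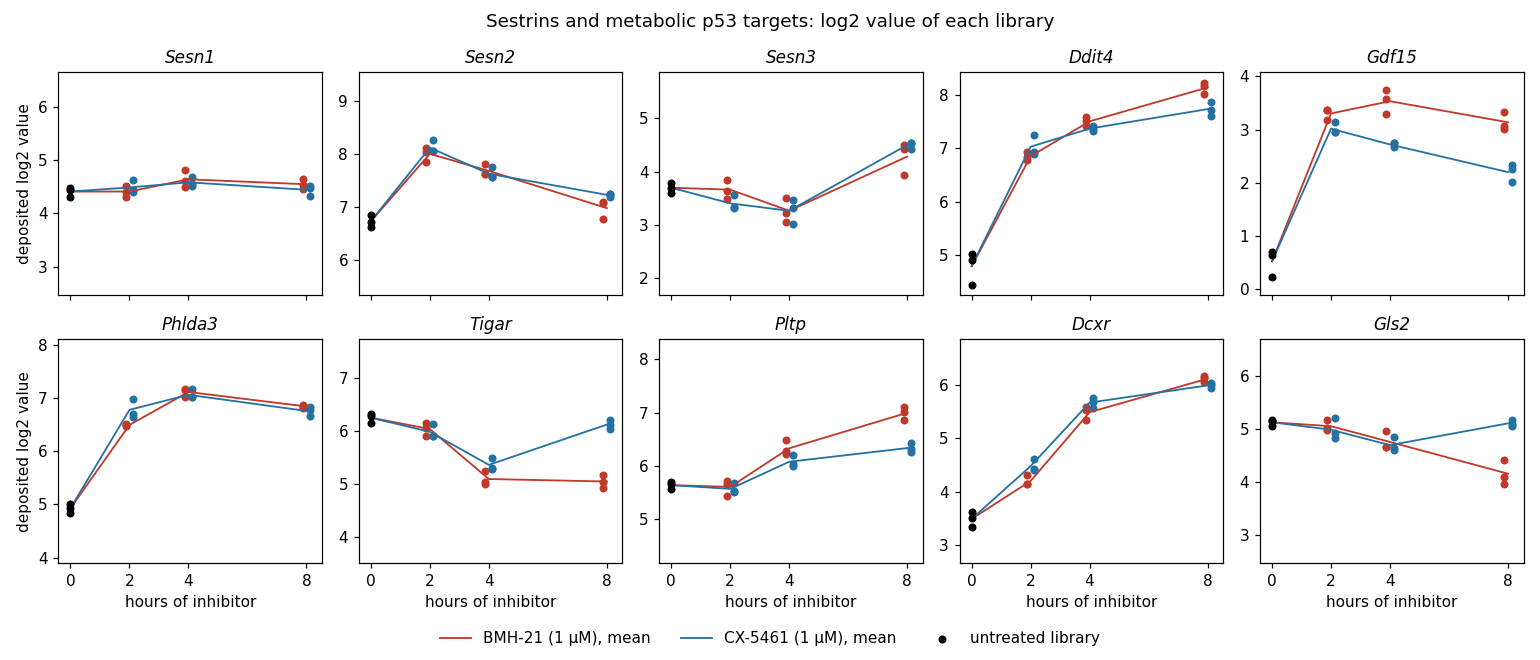
Deposited log2 level of each of the 10 members in the 21 libraries, by hours of inhibitor (points are libraries, red for BMH-21, blue for CX-5461 and black for untreated, and lines join group means). Ddit4 and Dcxr were higher at each later time on this scale, Sesn2 was highest at 2 h, and Tigar and Gls2 after 8 h lay lower in the BMH-21 than in the CX-5461 libraries.

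Sesn2 (chr4:132492032-132510501 in mm10, minus strand) was the sestrin that rose at 2 h, and its difference from control was smaller at 4 and 8 h. Log2 levels of 6.72, 6.86 and 6.63 were measured in the control. After 2, 4 and 8 h of BMH-21 the Sesn2 levels were 7.85, 8.12 and 8.04, then 7.81, 7.62 and 7.62, then 7.09, 6.78 and 7.08. After CX-5461 they were 8.26, 8.05 and 8.05, then 7.56, 7.76 and 7.57, then 7.25, 7.20 and 7.25. Every 2 h and 4 h library of either inhibitor lay above every control library, and at 8 h the BMH-21 libraries overlapped the control. Sesn2 was 2.41-fold above control at 2 h of BMH-21 (log2 1.27 ± 0.11 SE, n = 3, limma adjusted p = 1.3e-20) and 1.93-fold at 4 h (adjusted p = 1.8e-14). With CX-5461 the folds were 2.61 at 2 h (adjusted p = 2.8e-23), 1.86 at 4 h and 1.41 at 8 h (limma adjusted p = 2.7e-05). At 8 h of BMH-21 the Sesn2 difference was 0.25 (limma adjusted p = 0.025), and leaving out 1 library gave 0.19 to 0.35 and lost the call in 4 of 6 fits.

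Sesn1 (chr10:41809935-41908424, plus strand), which p53 and FOXO factors are known to induce, did not pass the threshold against control at any time. Its control levels of 4.44, 4.48 and 4.31 overlapped the 2 h and 8 h levels. The largest Sesn1 difference was 0.23 at 4 h of BMH-21 (levels 4.82, 4.60 and 4.50, limma adjusted p = 0.065). After centring, Sesn1 was past the threshold at 4 h of BMH-21 (0.38, limma adjusted p = 1.8e-07) and at 8 h (0.35), and at 2 and 4 h of CX-5461 (0.22 and 0.33). At 8 h of CX-5461 its sign turned with the scaling, 0.04 as deposited and -0.18 centred (limma adjusted p = 0.0017).

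Sesn3 (chr9:14275067-14333101, plus strand), the sestrin known as a FOXO target, was lower at 4 h and higher at 8 h with both inhibitors. The control libraries gave 3.79, 3.70 and 3.60. At 4 h Sesn3 was at 3.51, 3.23 and 3.05 with BMH-21 and at 3.01, 3.47 and 3.31 with CX-5461. At 8 h it was at 4.50, 3.93 and 4.42 with BMH-21 and at 4.54, 4.53 and 4.43 with CX-5461. All 4 h libraries lay below and all 8 h libraries above the control. Such separation was common, with 42% (BMH-21) and 47.6% (CX-5461) of all genes wholly below control at 4 h. At 8 h 24.1% and 42.8% lay wholly above. The fall at 4 h was 1.35-fold with BMH-21 (log2 -0.44 ± 0.12 SE, limma adjusted p = 0.0013) and 1.36-fold with CX-5461 (adjusted p = 0.0012). The rise at 8 h was 1.5-fold with BMH-21 (limma adjusted p = 1.3e-05) and 1.74-fold with CX-5461 (limma adjusted p = 1.8e-08). Of the 3 sestrins, then, 1 rose early, 1 rose late and 1 did not pass the test on the deposited scale.

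Ddit4 (chr10:59949669-59951834, minus strand), the mTORC1 inhibitor induced by stress, was higher at each later time with both inhibitors, though from 4 to 8 h of CX-5461 not after centring (-0.00). Its control levels were 4.91, 4.44 and 5.01. BMH-21 took Ddit4 to 6.79, 6.84 and 6.93 at 2 h, to 7.59, 7.42 and 7.52 at 4 h and to 8.18, 8.02 and 8.24 at 8 h. CX-5461 took it to 7.26, 6.94 and 6.90, then 7.33, 7.43 and 7.36, then 7.73, 7.61 and 7.88. No treated library overlapped the control, whose own spread was the widest of any Ddit4 group (SD 0.30, n = 3). The rise was 4.2-fold, 6.61-fold and 10.3-fold at 2, 4 and 8 h of BMH-21 (log2 3.36 ± 0.11 SE at 8 h, limma adjusted p = 4.5e-58). With CX-5461 Ddit4 rose 4.74-fold, 6.0-fold and 7.76-fold (limma adjusted p = 1.7e-51 at 8 h).

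Gdf15 (chr8:70629393-70632456, minus strand), the secreted hormone, was the member with the fewest reads in the control, 75, 71 and 55, at log2 levels of 0.69, 0.65 and 0.23. With BMH-21 its levels were 3.18, 3.36 and 3.37 at 2 h, 3.74, 3.29 and 3.57 at 4 h and 3.07, 3.01 and 3.33 at 8 h. With CX-5461 they were 3.15, 2.95 and 2.95 at 2 h, 2.67, 2.74 and 2.75 at 4 h and 2.33, 2.02 and 2.25 at 8 h. Under CX-5461 every 4 h library lay below every 2 h library and every 8 h library below those of 4 h. Of all genes, 26% and 6.3% lay wholly below in these 2 steps. The step from 2 to 4 h, -0.30, did not pass as deposited (limma adjusted p = 0.058) and passed after centring (-0.29, limma adjusted p = 0.0092). The step from 4 to 8 h was -0.52 (limma adjusted p = 5.1e-04). The Gdf15 levels under BMH-21 stayed above 3 in all 9 libraries. Gdf15 was 6.87-fold, 8.05-fold and 6.12-fold above control at 2, 4 and 8 h of BMH-21 (log2 3.01 ± 0.13 SE at 4 h, limma adjusted p = 8.2e-44). With CX-5461 the folds were 5.63, 4.58 and 3.19 (limma adjusted p = 2.6e-22 at 8 h).

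Phlda3 (chr1:135766119-135769136, plus strand), the AKT competitor, rose at 2 h and was highest at 4 h with both inhibitors, though with quantile normalization its change from 4 to 8 h of BMH-21 was 0.01. Its control levels were 5.01, 4.83 and 4.94. After BMH-21 Phlda3 was at 6.49, 6.51 and 6.48, then 7.15, 7.02 and 7.17, then 6.81, 6.84 and 6.87. After CX-5461 it was at 6.99, 6.65 and 6.69, then 7.01, 7.16 and 7.01, then 6.83, 6.67 and 6.77. All 18 treated libraries lay above the control, and the groups of both inhibitors overlapped at 4 and 8 h. Phlda3 rose 2.96-fold, 4.55-fold and 3.78-fold with BMH-21 at 2, 4 and 8 h and 3.61-fold, 4.4-fold and 3.56-fold at the same times with CX-5461 (limma adjusted p = 1.1e-40 for BMH-21 at 4 h). The steps beside the 4 h level were smaller. From 4 to 8 h of BMH-21 the step was -0.27 (limma adjusted p = 0.023, and 0.24 with median-ratio factors). From 2 to 4 h of CX-5461 it was 0.29 (limma adjusted p = 0.019). Leaving out 1 library lost the call in 3 of 6 fits for each of these steps.

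Dcxr (chr11:120725399-120727281, minus strand), the carbonyl reductase, rose at each later time with both inhibitors on the deposited scale, though from 4 to 8 h of CX-5461 the centred change was -0.05. The control libraries were at 3.50, 3.62 and 3.34. Under BMH-21 Dcxr stood at 4.14, 4.31 and 4.15, then 5.60, 5.34 and 5.54, then 6.06, 6.18 and 6.13. Under CX-5461 it stood at 4.62, 4.42 and 4.40, then 5.69, 5.76 and 5.57, then 6.04, 5.94 and 6.01. The groups did not overlap between control and any time. Dcxr rose 1.64-fold, 4.02-fold and 6.23-fold with BMH-21 (log2 2.64 ± 0.11 SE at 8 h, limma adjusted p = 3.4e-47) and 1.99-fold, 4.55-fold and 5.71-fold with CX-5461 (limma adjusted p = 1.8e-44 at 8 h).

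Pltp (chr2:164839518-164857711, minus strand), the phospholipid carrier, did not pass the test at 2 h and rose at 4 and 8 h. Its control levels were 5.65, 5.69 and 5.57. At 4 h Pltp was at 6.49, 6.22 and 6.28 with BMH-21 and at 6.03, 6.20 and 6.00 with CX-5461. At 8 h it was at 7.01, 6.87 and 7.11 with BMH-21 and at 6.32, 6.26 and 6.42 with CX-5461. There the 2 groups overlapped neither each other nor the control. Of all genes, 12.6% lay wholly higher under BMH-21 than under CX-5461 at 8 h. The rise was 1.62-fold at 4 h and 2.56-fold at 8 h of BMH-21 (log2 1.36 ± 0.11 SE, limma adjusted p = 3.5e-23). With CX-5461 it was 1.36-fold and 1.62-fold (limma adjusted p = 1.3e-08 at 8 h). Pltp shares 495 exon bases with Ctsa on the opposite strand, and strand use in the counting is not given in the sources used here. Ctsa, a lysosomal protease, did not move like Pltp: it was at -0.94 against control at 8 h under BMH-21 (limma adjusted p = 5.6e-14) and at -0.36 under CX-5461.

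Tigar (chr6:127085116-127109557, minus strand), the fructose bisphosphatase, fell at 4 h with both inhibitors and stayed low at 8 h under BMH-21. Its control levels were 6.28, 6.32 and 6.15. With BMH-21 Tigar was at 5.90, 6.15 and 6.06 at 2 h, 5.24, 5.00 and 5.05 at 4 h and 5.18, 4.92 and 5.05 at 8 h. With CX-5461 it was at 6.14, 5.90 and 5.91, then 5.28, 5.50 and 5.31, then 6.21, 6.04 and 6.11. At 8 h the CX-5461 libraries overlapped the control, with 1 of 3 inside its range and the others below it. All 8 h BMH-21 libraries lay below the control, as they did for 57.1% of all genes. Tigar fell 2.22-fold at 4 h (log2 -1.15 ± 0.11 SE, limma adjusted p = 5.2e-18) and 2.3-fold at 8 h of BMH-21, and 1.84-fold at 4 h of CX-5461 (limma adjusted p = 3.2e-12). At 8 h of CX-5461 the difference was -0.13 (adjusted p = 0.33). After centring that difference was -0.34 (limma adjusted p = 1.6e-08), and the Tigar differences at 2 h, -0.13 and -0.12, also passed. An antisense transcript, Platr31, shares 122 exon bases with Tigar and was not analysed here.

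Gls2 (chr10:128194457-128210004, plus strand), the glutaminase, fell like Tigar at 4 h with both inhibitors and at 8 h of BMH-21. In the control it was at 5.16, 5.15 and 5.06. With BMH-21 Gls2 was at 4.98, 5.16 and 5.01 at 2 h, 4.96, 4.65 and 4.65 at 4 h and 4.41, 3.96 and 4.10 at 8 h. With CX-5461 it was at 5.20, 4.92 and 4.83, then 4.60, 4.84 and 4.64, then 5.09, 5.05 and 5.17. The 8 h BMH-21 libraries were the lowest, and the 8 h CX-5461 libraries overlapped the control. Gls2 fell 1.3-fold at 4 h and 1.96-fold at 8 h of BMH-21 (log2 -0.97 ± 0.11 SE, limma adjusted p = 1.8e-13) and 1.35-fold at 4 h of CX-5461 (limma adjusted p = 0.00052). At 8 h of CX-5461 it was at -0.02 (adjusted p = 0.91), or -0.23 after centring (limma adjusted p = 0.0016). Gls2 shares 97 exon bases with Spryd4 on the opposite strand, whose difference from control was 0.24 after 8 h of BMH-21.

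**Figure D2:**
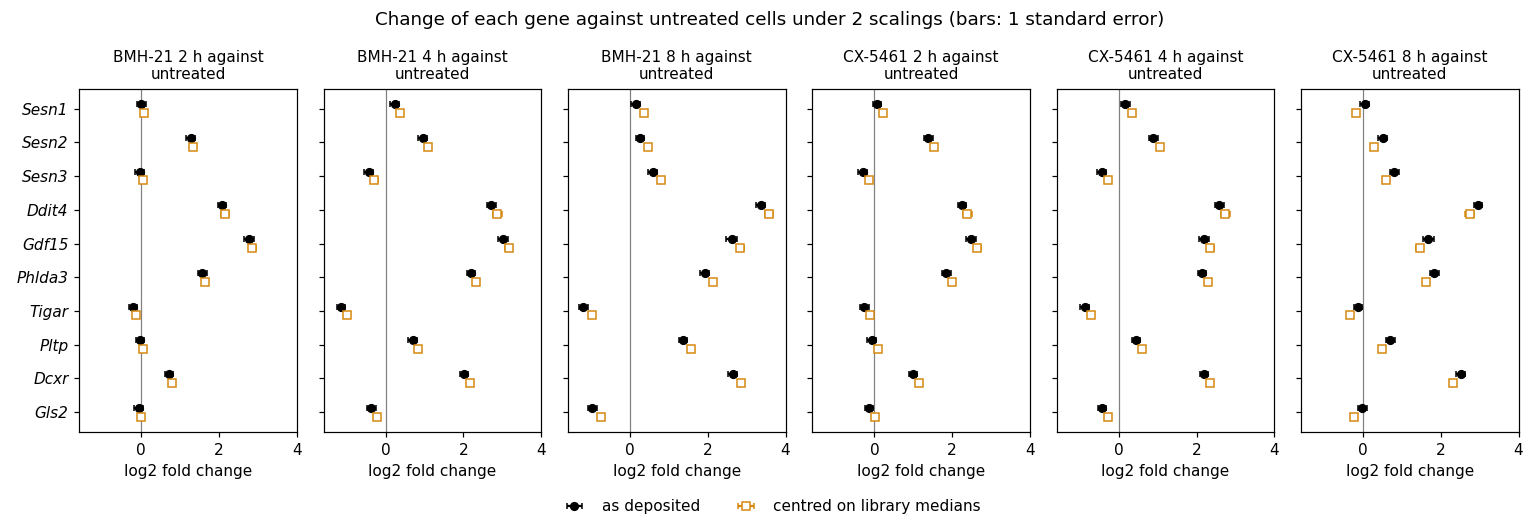
Log2 difference from control of each member at 2, 4 and 8 h of BMH-21 and of CX-5461 (filled circles are limma estimates on the deposited scale, open squares those after centring, and bars are ± 1 SE). Ddit4, Gdf15, Phlda3 and Dcxr lie above 0 at every time, and Tigar and Gls2 lie below 0 at 4 h, on both scales.

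Between the inhibitors, the members differed most at 8 h, as did all genes tested. At 2 h, 0 of the 10 members passed the limma test between BMH-21 and CX-5461, where 3.99% of all genes did, though 4 members had an unadjusted p under 0.05 and 0 passed with voom weights. At 4 h, 1 member passed, beside 17.8% of all genes: Gdf15 was 1.76-fold higher under BMH-21 (log2 0.81, limma adjusted p = 1e-06). At 8 h, 6 members passed, beside 79.2% of all genes. Ddit4 (0.41, limma adjusted p = 0.00052), Gdf15 (0.94) and Pltp (0.66) were higher under BMH-21 at 8 h, and each was further apart after centring, at 0.83, 1.37 and 1.09. Tigar (-1.07, limma adjusted p = 4.6e-16) and Gls2 (-0.95, limma adjusted p = 8.9e-13) were lower under BMH-21, and stayed lower after centring at -0.64 and -0.52. Sesn2 was lower under BMH-21 as deposited (-0.25, limma adjusted p = 0.026) and higher after centring (0.18), so its direction between inhibitors rests on the scaling. Sesn3 likewise had -0.22 as deposited and 0.21 centred. Phlda3 (0.09) and Dcxr (0.13) did not pass as deposited, and all 10 members passed after centring, beside 71.7% of all genes.

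**Figure D3:**
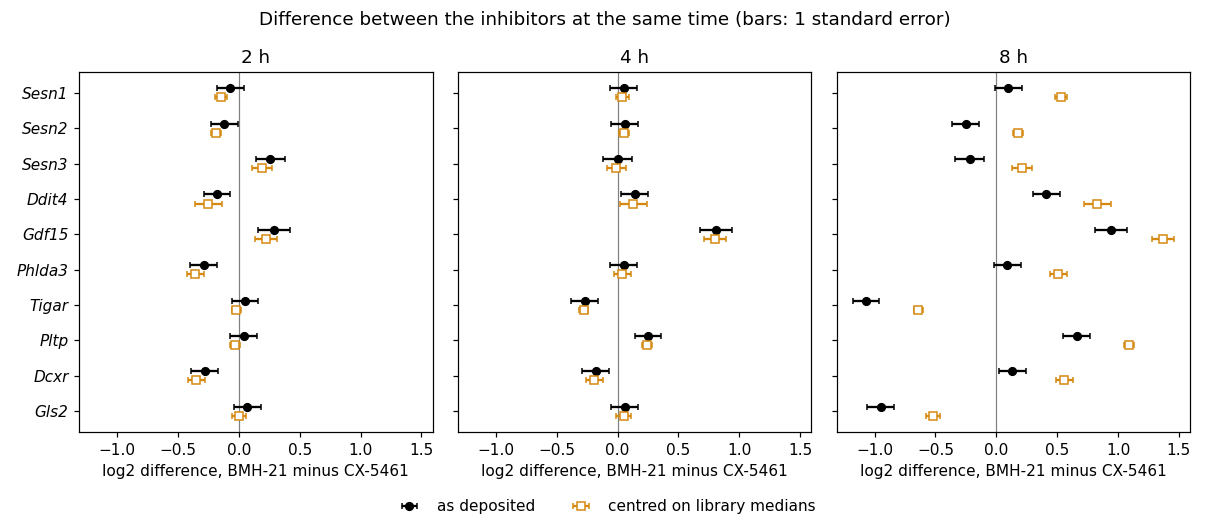
Log2 difference, BMH-21 minus CX-5461, of each member at 2, 4 and 8 h on the deposited scale (filled circles) and after centring each library on its median (open squares, bars are ± 1 SE). At 8 h Gdf15, Pltp and Ddit4 lie above 0 and Tigar and Gls2 below 0 on both scales, while Sesn2 and Sesn3 change side.

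Within each inhibitor, most members moved at each step in time. From 2 to 4 h of BMH-21, 4 members rose and 4 fell, beside 55.6% of all genes changed in either direction, with Dcxr at 1.29 and Pltp at 0.72 rising and Tigar at -0.94 falling most. From 4 to 8 h of BMH-21, 4 rose and 4 fell, beside 56.4%, with Sesn3 rising by 1.02 and Sesn2 at -0.70. From 2 to 4 h of CX-5461, 4 rose and 3 fell, beside 47.5%, with Dcxr at 1.19 and Tigar at -0.62. From 4 to 8 h of CX-5461, 6 rose and 3 fell, beside 63.7%, and here Tigar (0.75) and Gls2 (0.41) rose. After centring the Tigar rise was 0.38 and that of Gls2 was 0.04. The rises of Ddit4 (0.37), Pltp (0.26) and Dcxr (0.33) in that step were -0.00, -0.12 and -0.05 after centring. Sesn2 and Gdf15 fell from 4 to 8 h with both inhibitors, by 0.70 (Sesn2) and 0.39 (Gdf15) under BMH-21, and by 0.40 (Sesn2) and 0.52 (Gdf15) under CX-5461. The change from 4 to 8 h itself differed between the inhibitors for 3 of the 10 members, beside 69.4% of all genes: the difference, BMH-21 minus CX-5461, was -0.80 for Tigar (limma adjusted p = 3.8e-06), -1.01 for Gls2, which fell under BMH-21, and 0.41 for Pltp. After centring 9 of the 10 passed, beside 60.2% of all genes.

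Per kilobase of exon, Sesn2 was the most abundant member in the control and Ddit4 the most abundant after 8 h. On the log2 scale per kilobase, control levels were 4.94 for Sesn2, 4.38 for Tigar, 4.29 for Phlda3, 4.28 for Pltp, 3.98 for Ddit4, 3.32 for Gls2, 3.30 for Dcxr and 2.42 for Sesn1. Sesn3 at -0.23 and Gdf15 at -0.37 were lowest, and Sesn3 has the longest exon union, 15269 bases. Tigar, Phlda3 and Pltp, then Gls2 and Dcxr, then Sesn3 and Gdf15 did not differ from their neighbours beyond the spread of replicates. Between Pltp and Ddit4 the replicate SD was unlike, 0.06 for Pltp and 0.3 for Ddit4, and their difference was not tested. After 8 h of BMH-21 the order began with Ddit4 at 7.34, Phlda3 at 6.20, Dcxr at 5.94 and Pltp at 5.63, with Tigar at 3.18 and Gls2 at 2.36. After 8 h of CX-5461 it began with Ddit4 at 6.93, Phlda3 at 6.12, Dcxr at 5.81 and Sesn2 at 5.43, with Tigar at 4.25.

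The other genes of these pathways were read from lists chosen beside the members. Of 25 other p53 targets, 20, 20 and 19 rose and 0, 1 and 4 fell after 2, 4 and 8 h of BMH-21 (median log2 differences 0.79, 1.87 and 1.72). With CX-5461, 18, 20 and 22 rose and 0 fell at each time (0.90, 1.63 and 1.32). Centred at 8 h, 20 rose and 0 fell with BMH-21, and 22 rose and 0 fell with CX-5461. Fas, a death receptor, had the highest mean difference of that list, with 6.85 after 8 h of BMH-21, and Ddb2, a DNA damage sensor, the lowest, with -0.40. Trp53, the gene of p53 itself, fell by 1.38 at 8 h under BMH-21 (limma adjusted p = 1.3e-25) and by 0.68 under CX-5461, while Mdm4, an inhibitor of p53, had 0.23 and 0.78. Sesn3, Tigar and Gls2 fell at 4 h of BMH-21, where 1 of the 25 other targets and 44.9% of all genes fell.

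Genes of the mTORC1 pathway downstream of sestrins and Ddit4 fell more often than they rose at 4 h, as did all genes tested. Of 26 GATOR, Rag, Ragulator, TSC and mTORC1 genes, 0, 0 and 2 rose and 1, 15 and 22 fell at 2, 4 and 8 h of BMH-21 (medians -0.11, -0.32 and -0.45). With CX-5461, 0, 0 and 2 rose and 7, 16 and 5 fell (medians -0.21, -0.31 and 0.03, the last -0.18 after centring). Centred at 8 h, 4 rose and 21 fell with BMH-21, where 51.3% of all genes fell. With CX-5461, 1 rose and 18 fell on that scale, where 44.7% of all genes fell. All genes tested had 44.9% and 56.9% lower at 4 and 8 h of BMH-21 and 51.2% and 14.3% lower at 4 and 8 h of CX-5461, with medians of -0.21, -0.40, -0.28 and 0.11. Rragb, a Rag GTPase, fell most, with -2.14 after 8 h of BMH-21, and Depdc5, a GATOR1 subunit, had the highest mean with 0.60 at that time. Of 7 AMPK subunits, 4 fell and 1 rose after 8 h of BMH-21, and 1 fell and 2 rose after 8 h of CX-5461. Centred, 4 fell and 3 rose with BMH-21, and 3 fell and 2 rose with CX-5461. Prkag1 rose by 0.65 and 0.66 at 8 h of BMH-21 and of CX-5461, and Prkaa1 was among the 4 that fell after 8 h of BMH-21, while at 8 h of CX-5461 it was at -0.25 (limma adjusted p = 0.059). The subunit that fell there on the deposited scale, named after its values were seen, was Prkab2 (-0.29, limma adjusted p = 0.04).

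Other inducers of the members moved in different directions. Beside them, 24.5% of all genes rose and 56.9% fell at 8 h of BMH-21. The shares at 8 h of CX-5461 were 35.1% and 14.3%. The 8 genes of the ATF4 pathway were 3 higher and 4 lower after 8 h of BMH-21, and 3 higher and 3 lower after 8 h of CX-5461. Ddit3 (CHOP) had the highest mean, with 1.10 at 8 h under BMH-21 and 0.33 under CX-5461, and Chac1, a glutathione degrading enzyme, the lowest, with -2.02 and -1.12. Among 6 FOXO and HIF factor genes, 1 rose and 4 fell after 8 h of BMH-21, and 2 rose and 1 fell after 8 h of CX-5461. Foxo3 rose by 1.85 and 1.34, and Foxo4 was at -1.75 and -0.24. Among 6 liver X receptor genes and targets, 2 rose and 1 fell after 8 h of BMH-21, and 4 rose and 0 fell after 8 h of CX-5461. Abcg1, a cholesterol exporter, rose by 1.79 and 1.35, and Nr1h2, the receptor gene itself, was at -0.43 and -0.04. The centred counts at 8 h follow, higher then lower. BMH-21 gave 4 and 4 for the ATF4 pathway, 1 and 4 for FOXO and HIF, and 4 and 1 for liver X receptors. CX-5461 gave 2 and 4, 2 and 4, and 4 and 1 for the same lists.

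Close relatives and metabolic partners were mixed. Here too 24.5% of all genes rose and 56.9% fell at 8 h of BMH-21. The shares at 8 h of CX-5461 were 35.1% and 14.3%. Of 8 tested paralogs and partners of the members, 3 rose and 4 fell after 8 h of BMH-21 and 4 rose and 0 fell after 8 h of CX-5461. Ddit4l, the paralog of Ddit4, rose by 3.67 and 2.70, and Phlda2, a paralog of Phlda3, was at -0.96 and -0.14. Of 7 pentose phosphate enzymes, which take the sugar that TIGAR diverts, 0 rose and 4 fell after 8 h of BMH-21 and 1 rose and 0 fell after 8 h of CX-5461, with G6pdx at 0.14 and 0.39 and Rpia at -0.64 and -0.17. Of 8 glutathione and glutamate enzymes, 2 rose and 6 fell after 8 h of BMH-21 and 2 rose and 0 fell after 8 h of CX-5461. Gclc, which makes glutathione's precursor, rose by 0.30 and 0.41, and Gsr, which reduces glutathione, was at -1.20 and -0.14. The centred counts at 8 h follow, higher then lower. BMH-21 gave 4 and 4 for paralogs and partners, 2 and 3 for pentose phosphate, and 2 and 4 for glutathione and glutamate enzymes. CX-5461 gave 3 and 3, 1 and 5, and 2 and 5 for the same lists.

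**Figure D4:**
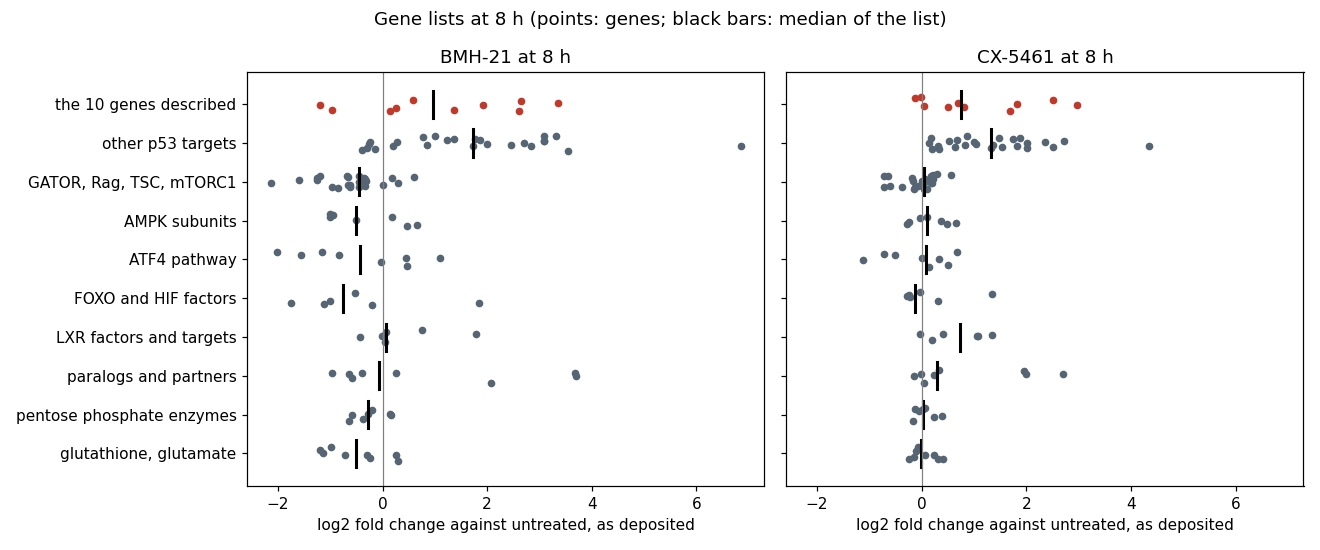
Log2 difference from control after 8 h for the genes of each list, BMH-21 and CX-5461 in separate panels with a shared axis (points are genes, red for the 10 members, and black bars are list medians). The other p53 targets lie above 0 for most genes in both panels, and the mTORC1 list lies below 0 for most genes in the BMH-21 panel.

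Ranked by the correlation of centred log2 levels over the 21 libraries, each member had a pair of nearest genes. These correlations are descriptions, since the libraries share groups and every gene shares their scaling. Nearest to Sesn2 were Midn (r = 0.958) and Cish (0.946), and nearest to Gdf15 were Plk2 and Cdkn1a (both 0.989), which are p53 targets. Dcxr was nearest to Sytl1 (0.996) and Plcd4 (0.995), Pltp to Pnpla6 and Cyld (both 0.994), and Tigar to Atad1 (0.995) and Mapk7 (0.991). Phlda3 was nearest to Fam212b (0.986) and Btbd19 (0.983), Ddit4 to Cd80 (0.972) and Nanos1 (0.956), and Gls2 to Acap1 (0.976) and Pcyt1b (0.972). Sesn3 was nearest to Jak2 (0.961) and Uso1 (0.954), and Sesn1 to Ell (0.941) and Rrm2 (0.937). Among the members, Ddit4 and Phlda3 had the highest r, 0.92, and Pltp and Gls2 the lowest, -0.94. Tigar and Gls2 had r = 0.78, Sesn1 and Sesn2 had 0.47, and Sesn2 and Sesn3 had -0.55.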

How the data were processed

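Poly(A) RNA of 21 libraries (7 groups of 3) was prepared after on-column DNase treatment with a directional kit, per the labels' protocols. The authors deposited 1 table of log2 expression for 20900 genes under a name that says voom. The submitters' processing notes name Trim Galore 0.5.0, TopHat2 2.1.1, R 4.0.5, DESeq2 1.30.1, edgeR 3.32.1, limma 3.46.0 and mm10, with no roles. The counting program, strand setting, annotation and filters are not given in the sources used here. Library columns were matched to samples by name, and 0 columns had no sample. Every deposited log2 value gave whole reads to within 1.7e-08 with the 0.5 offset, and the library scaling factors ran from 0.832 to 1.375. A log2 of 0 was 41.6 to 85.9 reads, and 3 reads were -4.63 to -3.59. Replicates differed beyond sampling noise (chi-square per degree of freedom 2.65 to 27.3).

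The test was limma 3.58.1 (R 4.3.3) on the deposited values, with 1 mean per group, eBayes with trend, two-sided, and Benjamini-Hochberg adjustment over 14666 genes with log2 above 0 in at least 3 libraries (6234 set aside), at 0.05. The variance prior had 111.5 degrees of freedom against 14 residual, and 8.5 after centring, so a gene's own spread had little weight on the deposited scale. Because of the offset, the fold changes of low genes are understated. Lengths and coordinates are from GENCODE M21 (GRCm38), promoters from RefSeq. The members and the gene lists were chosen with earlier results of these data known. Named genes are the members, the highest and lowest mean difference in each list, and the 2 genes most correlated with each member. The alternatives were other scalings, filters, offsets and variance models, a block for the replicate number, fits restricted to the groups compared, and leaving out each library. Figures were drawn with matplotlib 3.10.9.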

Additional observations from a re-analysis of the deposited data

Results flagged for a closer look

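For 3 members the change from 4 to 8 h differed between the inhibitors in a limma test of the difference itself. Tigar had -0.80 (BMH-21 minus CX-5461, log2, limma adjusted p = 3.8e-06; -0.37 after centring), with a change from 4 to 8 h of -0.05 under BMH-21 and 0.75 under CX-5461. Gls2 had -1.01 (adjusted p = 5.9e-08; -0.57 after centring), falling by 0.59 from 4 to 8 h of BMH-21 and rising by 0.41 over the same time with CX-5461, the latter 0.04 after centring. Pltp had 0.41 (adjusted p = 0.014; 0.85 after centring), with the larger gain under BMH-21. The test used no control library, and 69.4% of all genes tested passed it (60.2% after centring).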

How the results depend on the processing

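Of 44 member changes against control that passed, 43 kept their call under every alternative and every left-out library and 0 reversed. The exception was Sesn2 after 8 h of BMH-21. Without the filter, and with an offset of 5 reads, all 140 member values stayed on the same side of the threshold, and eBayes without trend changed 1 of 140. Numbers of replicates did not pair the libraries (median correlation of same-numbered libraries 0.00206, from -0.251 to 0.109), and the replicate block changed 0 of 140 calls.

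Other scalings changed more. They are listed as deposited scale first, then centring, median-ratio factors, quantile normalization, and the replicate block with centring. Genes past the threshold after 2 h of BMH-21 numbered 2891, then 5285, 5243, 4634 and 5141. Between inhibitors they numbered 585, then 2261, 2208, 1847 and 2120 at 2 h, and 2617, then 6719, 6116, 6139 and 6535 at 4 h. Members past it between inhibitors numbered 0, then 4, 4, 3 and 3 at 2 h, 1, then 4 in each at 4 h, and 6, then 10 in each at 8 h. For the difference between inhibitors in the 4 to 8 h change they numbered 3, then 9, 10, 9 and 9.

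Directions that turned are given for the same 4 scalings in that order. After 2 h of BMH-21, Sesn1 had 0.08 in each (0.00 with voom weights), Sesn3 0.04, 0.05, 0.04 and 0.04, Pltp 0.05 in each, and Gls2 0.00, 0.01, 0.00 and 0.00. After 2 h of CX-5461, Pltp had 0.08, 0.11, 0.10 and 0.08, and Gls2 0.01, 0.04, 0.02 and 0.01. Sesn1 after 8 h of CX-5461 had -0.18, -0.08, -0.20 and -0.18. Between inhibitors at 2 h, Tigar had -0.02, -0.05, -0.03 and -0.02, Pltp -0.03, -0.06, -0.05 and -0.03, and Gls2 -0.00, -0.03, -0.02 and -0.00. At 4 h, the median-ratio value was -0.01 for Sesn1, -0.01 for Sesn2, -0.02 for Phlda3, -0.01 for Gls2 and -0.07 for Sesn3. Quantile normalization gave -0.05 for Sesn2 and -0.06 for Phlda3, and Sesn3 was -0.01 with centring, also with the replicate block. At 8 h, Sesn2 had 0.18, 0.22, 0.21 and 0.18, and Sesn3 0.21, 0.26, 0.22 and 0.21. From 4 to 8 h of BMH-21, Sesn1 had 0.08 with median-ratio factors, Phlda3 0.01 with quantile normalization, and Tigar 0.01, 0.13, 0.09 and 0.01. From 4 to 8 h of CX-5461, Ddit4 had -0.00 with centring and with the replicate block added, Pltp -0.12, -0.11, -0.07 and -0.12, and Dcxr -0.05, -0.04, -0.01 and -0.05. In the difference of that change between inhibitors, Sesn2 had 0.13, 0.24, 0.27 and 0.13, and Sesn3 0.22, 0.32, 0.22 and 0.22. The cause was not tested.

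Leaving out each library in turn gave ranges that crossed 0 only for values that had not passed. These were Sesn1 (-0.06 to 0.05), Sesn3 (-0.13 to 0.05) and Pltp (-0.09 to 0.05) after 2 h of BMH-21, and Sesn1 (-0.01 to 0.09) and Gls2 (-0.05 to 0.01) after 8 h of CX-5461. Between inhibitors they were Tigar (-0.00 to 0.13), Pltp (-0.02 to 0.12) and Gls2 (-0.01 to 0.18) at 2 h, and Sesn1 (-0.04 to 0.12), Sesn2 (-0.01 to 0.12), Sesn3 (-0.13 to 0.11) and Gls2 (-0.05 to 0.13) at 4 h. Tigar from 4 to 8 h of BMH-21 ranged from -0.11 to 0.02, and the difference in the 4 to 8 h change from -0.02 to 0.14 for Sesn1 and from -0.01 to 0.07 for Phlda3. Genes past the threshold ranged from 2370 (without CX-5461 2 h replicate 2) to 5592 (without CX-5461 2 h replicate 1) after 2 h of CX-5461. Between inhibitors they ranged from 361 (without CX-5461 2 h replicate 3) to 653 at 2 h and from 1687 (without CX-5461 4 h replicate 3) to 2931 at 4 h. Members past it ranged from 1 to 2 between inhibitors at 4 h, the latter without BMH-21 4 h replicate 1, and from 5 (without BMH-21 2 h replicate 2) to 8 from 2 to 4 h of BMH-21. Depth limits Gdf15 most, with 55 to 75 reads in the control.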
